A study of Rattus norvegicus with 12 samples.

Results

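Circadian clock genes were followed across 12 libraries of polyadenylated RNA from the intestine of wild-type rats. The group of 10 genes was chosen by name: the repressors Cry1, Cry2, Per1, Per2 and Per3, the activator Clock, the nuclear receptors Nr1d1 and Nr1d2, and the output transcription factors Dbp and Tef. All 10 were among the 18749 genes of the deposited count table, and all 10 passed the filter on low counts that left 15704 genes for testing. The series concerns adaptation of the small intestine to removal of the colon. The libraries form 3 groups of 4, namely postSTC (taken after the operation), preSTC (taken before it) and preCTC (taken before a sham operation), all of genotype WT and labelled batch 1. The labels do not explain STC and CTC, and they give neither age nor sex. Whether replicates came from separate animals is not stated, and the p-values therefore cover the spread among libraries only, which may be technical. No sampling time of day is given, so time of day, the time that passed and the operation cannot be told apart.

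The mammalian clock is a feedback loop. CLOCK, or its relative NPAS2, pairs with BMAL1 and binds E-box sequences to switch on the Per and Cry genes, whose proteins return to the nucleus and repress that same pair. A second arm runs through Nr1d1 and Nr1d2, which encode the REV-ERB receptors that repress Bmal1 and Nfil3 and compete with the ROR receptors. Dbp, Tef and Hlf encode related factors that carry the rhythm to output genes through D-box sequences, where NFIL3 opposes them. Clock genes cycle in most cell types of the intestine, and peripheral clocks follow feeding and glucocorticoids as well as light.

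Libraries held 30095656 to 39374682 counts, and the 10 genes had between 129 and 5959 counts in any library, so counting error was small beside the spread between libraries, except for Per3 within postSTC. Levels are given as CPM, the count as a share of the library scaled with edgeR's TMM factors, which rescale for differences in library composition. This scaling does not remove reads that come from another tissue. Some libraries stood apart. In postSTC7, 37.7% of the counts came from 8 accessory gland genes, against 0.0158 to 0.0217% in the other postSTC libraries, 0.0175% in preSTC7 and at most 1.85e-05% in the remaining libraries. All 9 epithelial markers were detected in every group. The summed level of 5 ileal enterocyte markers was 1981 to 5170 CPM in postSTC, 5696 to 6791 CPM in preSTC and 13.8 to 56.9 CPM in preCTC. The summed level of 7 distal bowel markers was 164 to 544 CPM in postSTC, 5.65 to 32.2 CPM in preSTC and 1445 to 3359 CPM in preCTC. The label intestine therefore covers samples that differ in regional markers, and region and group cannot be told apart. Of these markers, 6 of 7 distal bowel genes were called higher and 2 of 5 ileal genes lower in postSTC against preSTC. Among all tested genes, 11.1% were called higher and 6.9% lower.

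The largest differences in clock gene expression lay between libraries of the same group, in the receptor genes Nr1d1 and Nr1d2 and the output genes Dbp and Tef. Nr1d1 encodes REV-ERB-alpha, a heme-binding repressor. Its gene body overlaps Thra on the other strand, and whether counting used strand is not given in the sources used here. Nr1d1 stood at 4.24, 10.7, 35.6 and 43.1 CPM across postSTC1, 2, 5 and 7, against 22.6, 16.6, 91.2 and 13.3 CPM across preSTC1, 5, 7 and 9. Across preCTC1, 5, 7 and 9 it stood at 35.0, 26.4, 153 and 29.5 CPM. The library numbered 7 was the highest in each group, by 1.21-fold over the next library in postSTC, 4.04-fold in preSTC and 4.38-fold in preCTC. Without the libraries numbered 7, postSTC overlapped both other groups, while the preSTC libraries (13.3 to 22.6 CPM) lay below the preCTC libraries (26.4 to 35.0 CPM).

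Dbp, the D-box activator whose transcript is among the most strongly cycling in rodent tissues, had the same arrangement. It stood at 9.54, 10.8, 14.4 and 20.8 CPM in postSTC, against 5.53, 8.29, 40.4 and 7.73 CPM in preSTC, with the libraries in the order of number just given. In preCTC it stood at 10.1, 8.06, 46.1 and 11.1 CPM. The libraries preSTC7 and preCTC7 were 4.88-fold and 4.17-fold above the next library of their group, and postSTC7 was 1.44-fold above the next.

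Tef, which encodes a relative of DBP, stood at 16.4, 24.5, 22.3 and 27.1 CPM in postSTC, against 8.27, 12.4, 37.4 and 10.2 CPM in preSTC. The preCTC libraries were at 15.7, 14.2, 43.2 and 22.9 CPM. Again preSTC7 and preCTC7 led their groups, by 3.02-fold and 1.89-fold over the next library, and the postSTC libraries lay close together. Nr1d2, which encodes REV-ERB-beta, stood at 18.0, 23.2, 41.7 and 53.7 CPM in postSTC, against 46.2, 33.6, 96.9 and 26.2 CPM in preSTC. In preCTC its levels were 38.2, 38.9, 69.0 and 34.0 CPM, so the library numbered 7 was once more the highest in each group and the other libraries overlapped. Accessory gland genes, which were abundant in postSTC7 and present in preSTC7, had 0 counts in preCTC7. The part of accessory gland tissue in the clock gene levels of postSTC7 was not tested.

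**Figure D1:**
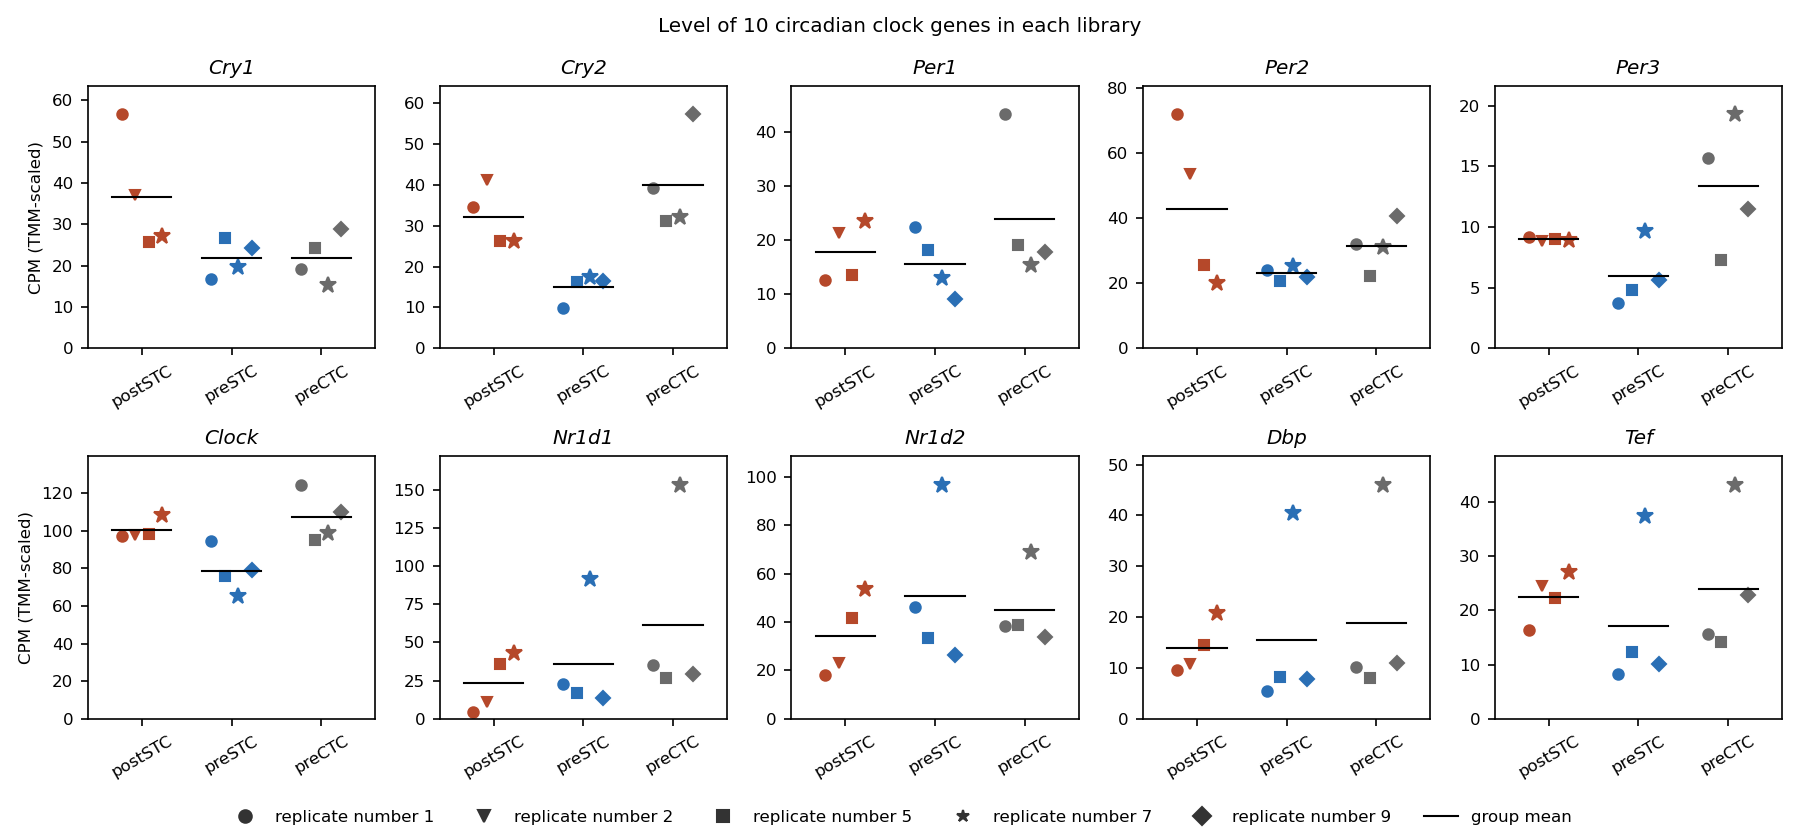
Level of each of the 10 clock genes in every library, in CPM scaled by TMM on linear axes from 0, with one marker shape per replicate number and a line at each group mean. The stars, libraries numbered 7, lie above the other libraries of their group for Nr1d1, Nr1d2, Dbp and Tef, as in Dbp with 40.4 CPM in preSTC7 and 46.1 CPM in preCTC7.

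Other clock genes were also high or low in the libraries numbered 7. Ciart, which encodes a repressor of the CLOCK and BMAL1 pair, stood at 0.614, 0.468, 0.346 and 2.55 CPM in postSTC, against 0.466, 0.492, 2.65 and 0.28 CPM in preSTC. The preCTC levels were 0.131, 0.177, 3.19 and 0.289 CPM, from between 5 and 124 counts a library over the 12 libraries. The library numbered 7 was 4.16-fold above the next in postSTC, 5.38-fold in preSTC and 11.0-fold in preCTC.

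Hlf, which encodes the third relative of DBP and was named after its values were seen, was also highest in preSTC7 (5.29 CPM) and preCTC7 (5.32 CPM), but stood at 2.11 CPM in postSTC7, against 2.1 to 3.2 CPM in the other postSTC libraries. Bmal1, listed in the files under its older symbol Arntl, was at its lowest in preSTC7 and preCTC7. It stood at 105, 91.8, 81.7 and 88.4 CPM in postSTC, against 73.9, 74.4, 43.8 and 81.2 CPM in preSTC. In preCTC it stood at 106, 94.1, 59.2 and 99.5 CPM. Nfil3 was likewise lowest in the library numbered 7 of each baseline group, at 32.1 CPM in preSTC7, with the other preSTC libraries between 49.7 and 63.3 CPM, and at 7.12 CPM in preCTC7, with the other preCTC libraries between 19.5 and 21.5 CPM. In postSTC the lowest Nfil3 level was 29.9 CPM in postSTC5, with 42.3 CPM in postSTC7.

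**Figure D2:**
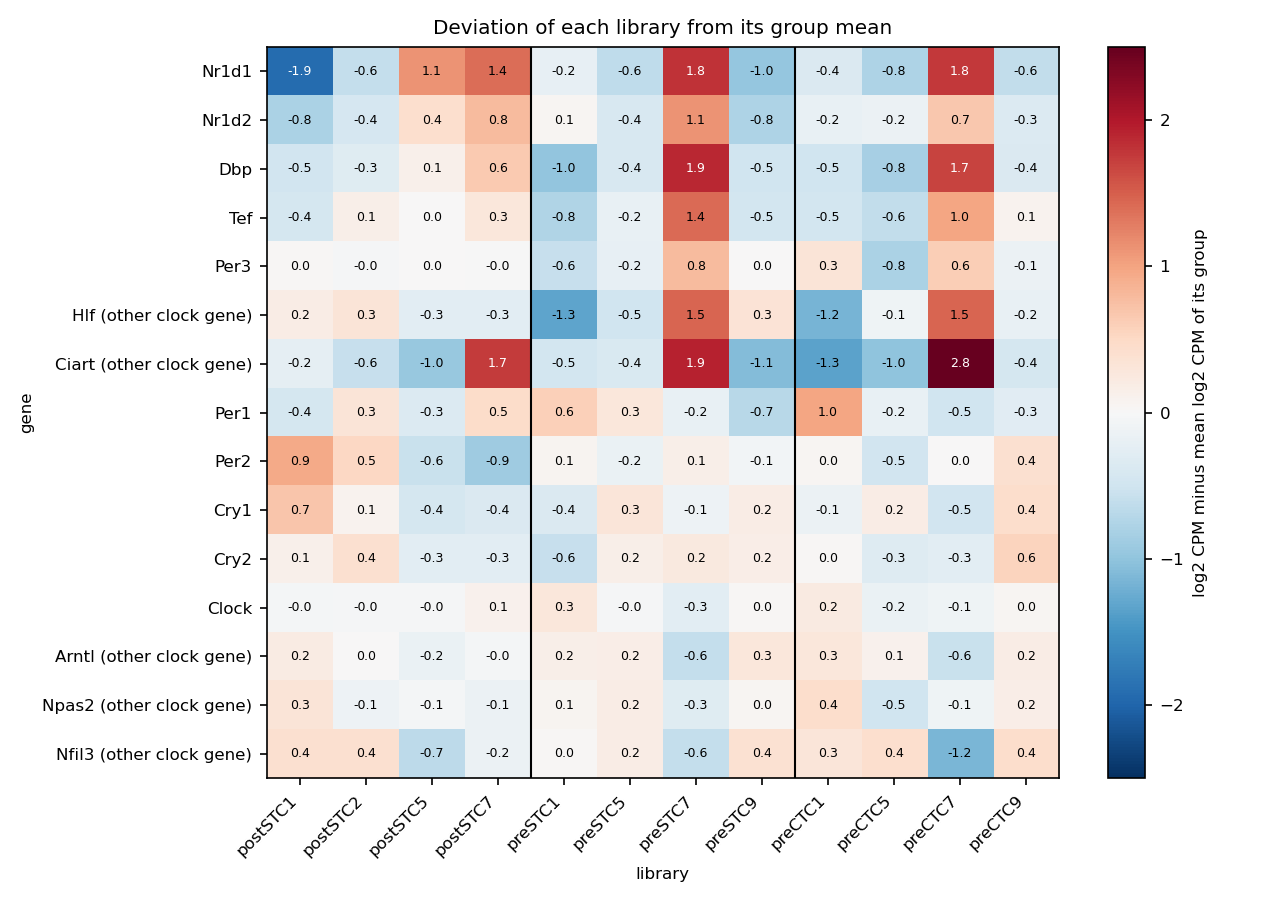
Deviation of each library from the mean of its own group for the 10 clock genes and 5 other clock genes, as log2 CPM minus the group's mean log2 CPM, in colour and print. In preSTC7 and preCTC7, Nr1d1, Dbp, Tef, Hlf and Ciart are above the group mean and Arntl and Nfil3 below it, and in the postSTC columns Nr1d1 and Nr1d2 run opposite to Per2 and Cry1.

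In postSTC, Per2 and Cry1 ran opposite to Nr1d1 and Nr1d2. Cry2 also lay above its group mean in postSTC1 and postSTC2 and below it in postSTC5 and postSTC7. Per1 lay on the same side of its mean as Nr1d1 in postSTC1 and postSTC7 and on the other side in postSTC2 and postSTC5. Per3 hardly differed between the postSTC libraries. Per2, a core repressor, stood at 71.9, 53.5, 25.6 and 20.2 CPM in postSTC, against 24.2, 20.5, 25.3 and 21.9 CPM in preSTC. Its preCTC levels were 31.9, 22.3, 31.3 and 40.8 CPM. Cry1, the cryptochrome gene whose transcript peaks late in the cycle, stood at 56.7, 37.0, 25.7 and 27.2 CPM in postSTC, against 16.7, 26.6, 19.7 and 24.4 CPM in preSTC. In preCTC it lay at 19.3, 24.4, 15.2 and 28.9 CPM. The libraries postSTC1 and postSTC2 were the highest for both genes and the lowest for Nr1d1 and Nr1d2, whereas for Per2 postSTC5 lay just above the highest preSTC library (25.3 CPM) and postSTC7 below the lowest (20.5 CPM). For Cry1 this was not particular to postSTC: Cry1 was also below its group mean in preCTC7 and above it in preCTC9, preSTC5 and preSTC9, where Nr1d1 lay on the other side of its mean. In preSTC1 and preCTC1, however, Cry1 and Nr1d1 both lay below their group means.

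The spread within groups was summarised as the pooled standard deviation of log2 CPM about the group means, with 9 degrees of freedom. It was 1.34 for Nr1d1, 1.03 for Dbp, 0.72 for Tef and 0.69 for Nr1d2, against a median of 0.29 over all 15704 tested genes. Without the 3 libraries numbered 7, a choice made after seeing the data, it was 0.92 for Nr1d1, 0.28 for Dbp, 0.32 for Tef and 0.43 for Nr1d2, against a median of 0.25. Clock had the smallest spread of the 10, at 0.17, and the other 9 genes lay above the median of all genes in both cases. Within the postSTC group, Nr1d1 ranged 10.2-fold.

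The genes most like Dbp were sought as the 5 other tested genes with the highest Pearson correlation of log2 CPM over the 12 libraries after removal of the group means. They were Fads2 (r = 0.92), Ciart (0.89), Snrpd2 (0.89), Kif9 (0.88) and LOC100360413 (0.86). Fads2 encodes a fatty acid desaturase, Snrpd2 a core protein of spliceosomal particles and Kif9 a kinesin. Spearman's rho was 0.76, 0.68, 0.92, 0.78 and 0.73 in the same order. These values lean on preSTC7 and preCTC7: without them r was 0.90 for Fads2, 0.68 for Ciart, 0.68 for Snrpd2, 0.74 for Kif9 and 0.79 for LOC100360413. They are given as a description, since the libraries share a preparation and the genes were picked as the highest of all.

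Promoter sequences were read for these genes because several of them moved together in the same libraries. RefSeq windows of assembly GRCr8, from 250 bases before to 50 after an annotated transcript start, were matched by gene identifier for 9 of the 10 genes, and Cry1 had none. Each window was searched on both strands for the E-box CACGTG, the E-prime box CACGTT, which reads AACGTG on the other strand, the D-box TTATGTAA and the ROR/REV-ERB half-site AGGTCA, which do not overlap each other in the windows shown. The E-box was in the windows of Nr1d1 and Tef, 2 of the 9 genes, and occurred 3 times in that of Ciart, at 93, 35 and 21 bases before the start, against 6.42% of all 33469 promoter windows. The E-prime box was in the windows of Cry2, Per2 and Nr1d1 (4.83% of all windows), the D-box in that of Per2 (0.893%), and the half-site in those of Nr1d2 and Bmal1 (16.2%). A match is a description of the sequence and not a measured site. Windows of 5 genes follow, chosen to show each of the 4 motifs in genes that stood apart in some libraries, with motifs in capitals, 5′ to 3′ on the strand of the gene. For Nr1d1 the window shown is that of a second annotated start, and the E-prime box lies in the window of its other start. The windows of Nr1d2 and Cry2 are not shown.
Nr1d1, chr10:84229405-84229704, minus strand: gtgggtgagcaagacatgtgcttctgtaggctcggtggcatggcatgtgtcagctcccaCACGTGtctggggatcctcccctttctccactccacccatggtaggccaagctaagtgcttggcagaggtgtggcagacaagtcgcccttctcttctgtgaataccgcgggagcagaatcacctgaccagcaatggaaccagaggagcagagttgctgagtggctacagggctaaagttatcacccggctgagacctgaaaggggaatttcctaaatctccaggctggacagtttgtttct
Tef, chr7:115206577-115206876, plus strand: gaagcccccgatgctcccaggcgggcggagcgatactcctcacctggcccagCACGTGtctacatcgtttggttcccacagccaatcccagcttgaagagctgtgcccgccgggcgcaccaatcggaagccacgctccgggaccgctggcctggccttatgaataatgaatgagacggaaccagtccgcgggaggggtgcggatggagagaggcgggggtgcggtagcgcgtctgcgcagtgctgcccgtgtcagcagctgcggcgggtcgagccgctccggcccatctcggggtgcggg
Ciart, chr2:186112197-186112496, minus strand: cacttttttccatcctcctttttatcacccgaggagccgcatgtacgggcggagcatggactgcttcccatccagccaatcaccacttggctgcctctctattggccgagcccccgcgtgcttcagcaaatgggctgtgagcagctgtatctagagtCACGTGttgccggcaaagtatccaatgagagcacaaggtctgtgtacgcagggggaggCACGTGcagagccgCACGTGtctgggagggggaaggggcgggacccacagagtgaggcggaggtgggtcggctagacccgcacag
Per2, chr9:99496944-99497243, minus strand: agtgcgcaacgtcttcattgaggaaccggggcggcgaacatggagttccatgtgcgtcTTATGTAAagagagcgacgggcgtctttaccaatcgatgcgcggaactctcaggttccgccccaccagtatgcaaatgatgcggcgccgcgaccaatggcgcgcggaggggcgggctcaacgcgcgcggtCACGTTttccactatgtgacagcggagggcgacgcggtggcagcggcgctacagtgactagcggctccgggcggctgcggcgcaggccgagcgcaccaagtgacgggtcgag
Arntl, chr1:176766078-176766377, plus strand: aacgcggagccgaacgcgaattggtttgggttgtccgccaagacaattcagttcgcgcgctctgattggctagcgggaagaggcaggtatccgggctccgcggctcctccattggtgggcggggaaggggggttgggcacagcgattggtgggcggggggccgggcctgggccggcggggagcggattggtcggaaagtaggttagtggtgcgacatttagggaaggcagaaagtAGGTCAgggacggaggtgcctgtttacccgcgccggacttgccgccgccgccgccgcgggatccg

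**Figure D3:**
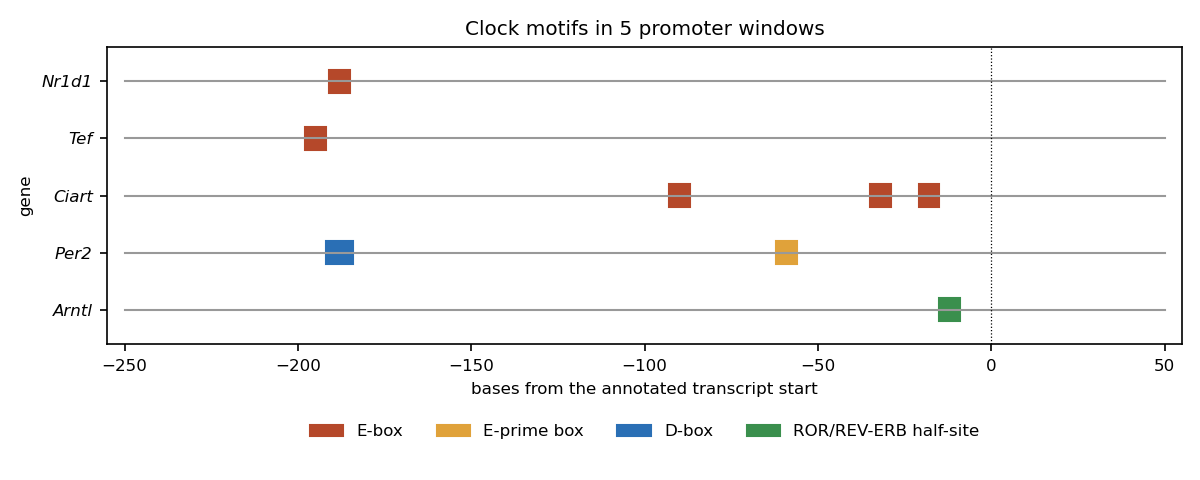
Positions of the 4 motifs in the 5 promoter windows, drawn to scale in bases from the annotated transcript start (dotted line at 0), with the width of each box equal to the length of the motif. Ciart has 3 E-boxes, the nearest 21 bases before the start, Nr1d1 and Tef have 1 each, Per2 has an E-prime box and a D-box, and Arntl has 1 half-site 15 bases before the start.

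Set against preSTC, the postSTC libraries showed where clock gene levels lay after the operation. Of the 10 genes, 1 rose and 0 fell at an adjusted p under 0.05 (edgeR, quasi-likelihood F-test), against 18% of all tested genes called in either direction (11.1% higher and 6.9% lower). At an unadjusted p under 0.05 it gave 4 of the 10, namely Cry2, Cry1, Per2 and Clock, all of them higher, against 33.6% of all tested genes. DESeq2 called the same 4, of 9 to which it gave an adjusted p, against 23.3% of all genes, and limma voom called 1 of 10, against 15.2%. The fitted log2 fold changes of the 10 genes had a median of 0.38, with 7 above 0 and 3 below, against a median of 0.04 over all tested genes. These counts are of fits that do not use the replicate number. With that number as a block over the 8 libraries compared, edgeR called 0 of the 10 and 68 of all tested genes. The blocked fit rests on 3 same-numbered pairs, since postSTC2 and preSTC9 have no partner. The shares called were not tested against each other.

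The gene that rose was Cry2, which encodes a cryptochrome that represses CLOCK and BMAL1. It stood at 34.5, 41.3, 26.3 and 26.2 CPM in postSTC, against 9.87, 16.3, 17.3 and 16.5 CPM in preSTC. Every postSTC library lay above every preSTC library, and the group means were 32.1 ± 7.28 CPM in postSTC and 15.02 ± 3.46 CPM in preSTC (SD, n = 4 each). The log2 fold change was 1.10 ± 0.24 (SE, adjusted p = 0.0107 by edgeR), or 2.14-fold. It was 1.24 without the 3 libraries numbered 7 (edgeR adjusted p = 0.0263), and leaving out any single library kept the edgeR adjusted p between 0.00743 and 0.0299. Same-numbered postSTC and preSTC libraries deviated together over all genes, and the main fit did not use the number. With the replicate number as a block, the edgeR adjusted p for Cry2 was 0.0339 in the fit of 12 libraries and 0.147 in the fit of the 8 libraries compared, where 68 of all tested genes were called. The blocked fit of 12 libraries also pairs preCTC by number. On log2(FPKM + 0.1) and log2(FPKM + 1), limma gave an adjusted p of 0.124 and 0.140 for Cry2. These scales carry no TMM correction, and the TMM factor of postSTC7 was 0.568.

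Markers of some cell types also rose in postSTC against preSTC. The summed level of 8 smooth muscle markers was 4782 to 7124 CPM in postSTC, against 2737 to 4122 CPM in preSTC, with 4 of the 8 called higher (11.1% of all tested genes), none called lower and none at 0 counts in either group. The summed level of 11 tuft cell markers, a list made after values were seen, was 146 to 244 CPM in postSTC, against 87.8 to 133 CPM in preSTC, with 5 of 10 tested called higher. The list includes Trpm5, named below among the genes most like Cry2, so it is not independent of the Cry2 values and is given as a description. Tuft sums overlapped in preSTC against preCTC, with 1 of 10 called higher and 2 lower, against 19.1% and 19.6% of all tested genes. They also overlapped in postSTC against preCTC, with 4 higher and 0 lower, against 9.27% and 7.37%. Cry2 was called lower in the first of these comparisons and was not called in the second. The genes most like Cry2 over the 12 libraries by the measure used for Dbp were Gnat3 (r = 0.95), Trpm5 (0.94), Enkur (0.91), Prkce (0.91) and Rgs13 (0.91), and r was 0.94, 0.89, 0.85, 0.86 and 0.88 in the same order without preSTC1 and preCTC9. Gnat3 and Trpm5 encode the gustducin subunit and the cation channel of taste transduction, which tuft cells also use. The part of cell composition in the Cry2 result was not tested, and in bulk RNA a change in the number of cells and a change in RNA per cell cannot be told apart.

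The remaining repressors and Clock did not pass the threshold. Clock, the activator subunit with histone acetyltransferase activity, stood at 97.4, 97.9, 98.2 and 108 CPM in postSTC, against 94.3, 75.9, 65.2 and 79.3 CPM in preSTC. Clock and Cry2 were the 2 of 10 genes whose groups did not overlap, both higher, against 22.1% of all tested genes (11.9% higher and 10.2% lower), and for Clock the log2 fold change was 0.35 ± 0.12 (SE, adjusted p = 0.0593 by edgeR, or 0.0322 without preSTC1). Cry1 differed by 0.75 ± 0.27 (SE, adjusted p = 0.0758 by edgeR) with overlapping groups. Per2 differed by 0.90 ± 0.34 (SE, adjusted p = 0.0878 by edgeR), or by 1.13 without postSTC7 (edgeR adjusted p = 0.0221), and the groups overlapped through postSTC7. The 2 period genes left gave smaller differences. Per1, a period gene that glucocorticoids also induce, stood at 12.6, 21.3, 13.6 and 23.5 CPM in postSTC, against 22.4, 18.1, 13.0 and 9.11 CPM in preSTC, with a log2 fold change of 0.18 ± 0.37 (SE, adjusted p = 0.768 by edgeR). Per3, the period gene that is least needed for the core loop in mice, stood at 9.18, 8.82, 9.05 and 8.96 CPM in postSTC, against 3.76, 4.82, 9.67 and 5.6 CPM in preSTC. The postSTC libraries differed by less than counting error (SD 0.151 CPM) and 3 of 4 preSTC libraries lay below them, with a log2 fold change of 0.59 ± 0.32 (SE, adjusted p = 0.213 by edgeR).

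For Nr1d1 and Dbp the direction of the difference between postSTC and preSTC turned without preSTC7, and for Dbp it also turned in other settings. Nr1d1 had a log2 fold change of -0.62 ± 0.84 (SE, adjusted p = 0.642 by edgeR), and of 0.42 without preSTC7. That was the only 1 of 22 alternatives, leaving out all 3 libraries numbered 7 among them, that turned its direction. Dbp had a log2 fold change of -0.16 ± 0.69 (SE, adjusted p = 0.896 by edgeR), and of 0.95 without preSTC7. With preSTC7 kept, the log2 fold change of Dbp was 0.22 by limma voom. With the replicate block it was 0.29 in the fit of 12 libraries and 0.19 in the fit of 8 libraries, also above 0. Nr1d2 had -0.57 ± 0.44 and Tef 0.40 ± 0.47 (SE, adjusted p = 0.389 and 0.588 by edgeR). Without all 3 libraries numbered 7, Tef was higher in postSTC by 1.02 on the log2 scale (edgeR adjusted p = 0.029), while Dbp was higher by 0.67 (edgeR adjusted p = 0.09). Those libraries were left out after the levels of these same genes were seen, so these p-values are a description only.

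**Figure D4:**
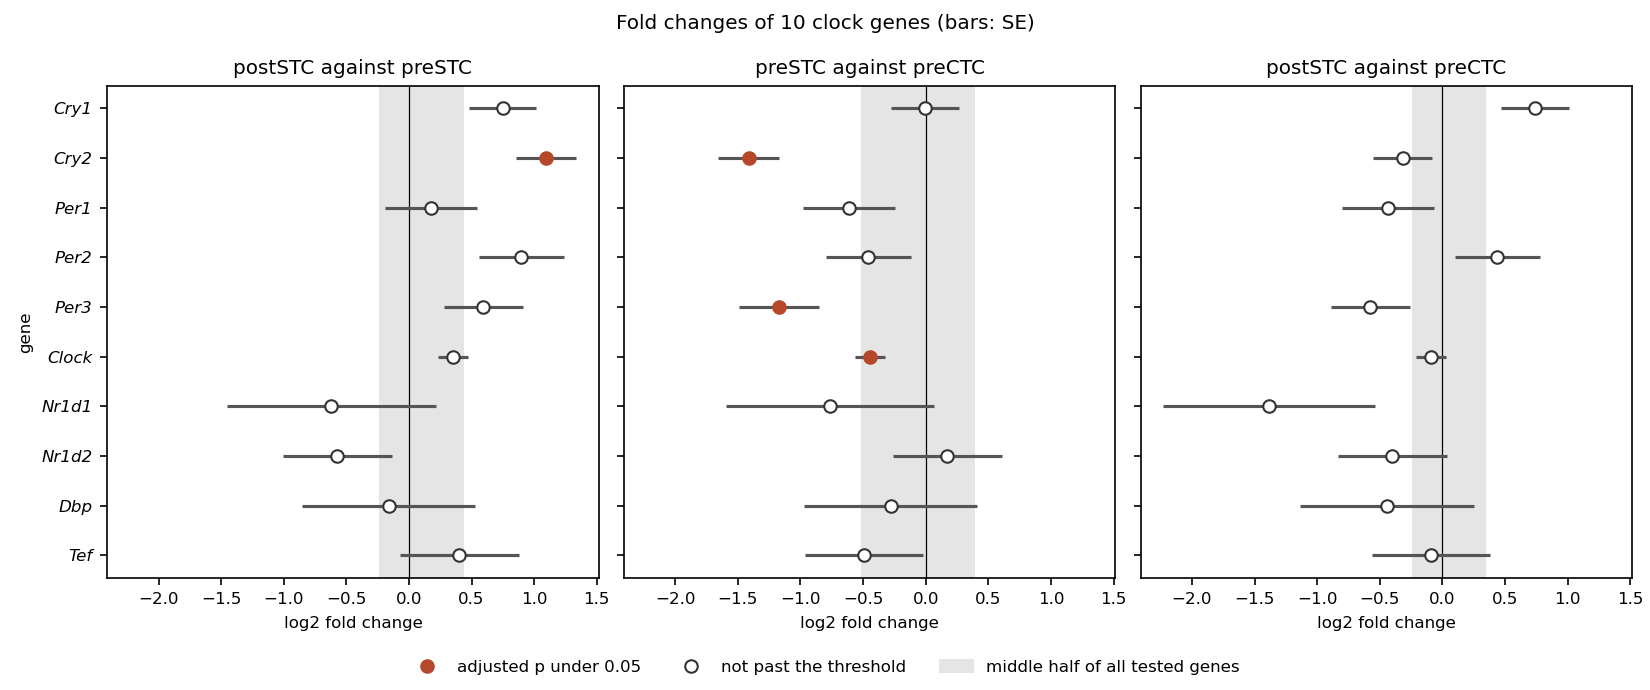
Log2 fold changes of the 10 clock genes in the 3 comparisons, with bars for the standard error, filled points for an edgeR adjusted p under 0.05 and a grey band from the lower to the upper quartile of all tested genes. Cry2 passes in postSTC against preSTC, and Cry2, Per3 and Clock pass in preSTC against preCTC, while the widest bars belong to Nr1d1 and Dbp.

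The comparison of preSTC against preCTC set the groups taken before either operation beside each other. It shares the preSTC libraries with the comparison above, so the 2 are not independent. Of the 10 genes, 3 fell and 0 rose, against 38.7% of all tested genes called in either direction (19.6% lower and 19.1% higher). The median log2 fold change of the 10 genes was -0.48, against -0.02 over all tested genes, and 9 of the 10 were below 0. Cry2 was at 9.87 to 17.3 CPM in preSTC, against 39.3, 31.1, 32.2 and 57.3 CPM in preCTC. The groups did not overlap, with a log2 fold change of -1.41 ± 0.24 (SE, adjusted p = 0.000856 by edgeR). Per3 was at 3.76 to 9.67 CPM in preSTC, against 15.7, 7.25, 19.3 and 11.4 CPM in preCTC, with a log2 fold change of -1.17 ± 0.32 (SE, adjusted p = 0.0131 by edgeR). The groups overlapped through preSTC7, and within the libraries numbered 7 preSTC was again the lower. Clock was at 65.2 to 94.3 CPM in preSTC, against 125, 95.3, 98.8 and 110 CPM in preCTC, with a log2 fold change of -0.45 ± 0.12 (SE, adjusted p = 0.0116 by edgeR), which limma on FPKM values put at 0.0515 and 0.0501. Of the 10 genes, 2 (Cry2 and Clock) had groups that did not overlap, against 45% of all tested genes (22.5% with preSTC lower and 22.5% with preSTC higher).

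The other 7 genes did not pass in preSTC against preCTC in the fit without a block, with edgeR adjusted p from 0.208 for Per1 to 0.986 for Cry1. With the replicate number as a block over the 8 libraries, edgeR also called Nr1d1 (-0.79, adjusted p = 0.00227), Tef (-0.61, 0.0409) and Per1 (-0.56, 0.0475). The main fit did not assume pairing by number there, and the block does. Without the block, Tef had a log2 fold change of -0.49 ± 0.47, and of -1.22 without preSTC7 (edgeR adjusted p = 0.0262). Per1 was led by preCTC1, at 43.3 CPM, with 15.4 to 19.2 CPM in the other preCTC libraries. The summed smooth muscle markers were 2737 to 4122 CPM in preSTC, against 7935 to 13862 CPM in preCTC, with 8 of 8 called lower (19.6% of all tested genes), and 5 fibroblast markers summed to 1614 to 2129 CPM in preSTC, against 4363 to 6821 CPM in preCTC. Their part in the differences of Cry2, Per3 and Clock was not tested.

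In postSTC against preCTC, 0 of the 10 genes were called by edgeR, against 16.6% of all tested genes (9.27% higher and 7.37% lower). None of the 10 had groups that did not overlap, against 18.1% of all genes (9.54% higher and 8.6% lower). At an unadjusted p under 0.05 there was 1 (30.8% of all genes), Cry1, which was higher in postSTC by 0.74 ± 0.27 in log2 terms (SE, adjusted p = 0.0833 by edgeR). DESeq2 called Cry1 (20.7% of all genes) and limma voom called 0 (15.8%). The fitted log2 fold change was -0.32 ± 0.24 for Cry2, -0.58 ± 0.32 for Per3 and -0.09 ± 0.12 for Clock (SE, adjusted p = 0.402, 0.244 and 0.643 by edgeR). Nr1d1 had the largest difference of the 10, -1.38 ± 0.85 (SE, adjusted p = 0.297 by edgeR), or -0.37 without preCTC7, and did not pass.

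Levels of different genes were compared per length. Deposited FPKM values, rescaled here by the TMM factors, gave Per3 the lowest median in each group, at 1.42 in postSTC, 0.82 in preSTC and 2.14 in preCTC. The highest median among the 10 was that of Cry1 in postSTC (11.0, range 8.79 to 19.4), Nr1d2 in preSTC (8.65, range 5.68 to 21.0) and Nr1d1 in preCTC (11.4, range 9.37 to 54.3). Per1 and Tef, next above Per3 in order, had medians of 2.20 and 3.93 in postSTC, 1.97 and 1.89 in preSTC, and 2.34 and 3.24 in preCTC. Neighbours in the order of medians overlapped in range within each group, except that Per1 lay above Per3 in every postSTC library and Per2 above Per1 in every preSTC library. Bmal1 was above all 10 by median, at 19.1 in postSTC, 15.8 in preSTC and 20.6 in preCTC.

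Of 21 other clock genes on a list of partners, kinases and accessory factors, 19 were in the table and 18 were tested. In postSTC against preSTC, 2 rose and 2 fell, close to the 11.1% higher and 6.9% lower of all tested genes, with a median log2 fold change of 0.06. Npas2, which can take the place of CLOCK, stood at 99.1, 72.2, 75.7 and 71.0 CPM in postSTC, against 52.9, 57.6, 40.8 and 52.0 CPM in preSTC. The groups did not overlap, with a log2 fold change of 0.65 ± 0.19 (SE, adjusted p = 0.0353 by edgeR), and the adjusted p was 0.0688 without postSTC1, 0.0585 without postSTC5, 0.0729 without preSTC1, 0.0517 without preSTC5, 0.1 without preSTC7 and 0.0802 without preSTC9. Rora, which encodes an activator that competes with REV-ERB, rested on postSTC7. It stood at 3.75, 4.49, 6.23 and 15.8 CPM in postSTC, against 2.56, 1.94, 4.13 and 3.22 CPM in preSTC, with a log2 fold change of 1.35 ± 0.43 (SE, adjusted p = 0.0473 by edgeR), or 0.69 without postSTC7 (edgeR adjusted p = 0.116). Leaving out any other single library except postSTC1 or postSTC2 also ended that call. Timeless and Tipin, whose products act together at the replication fork, fell and had log2 fold changes of -0.78 ± 0.19 and -0.45 ± 0.12 (SE, adjusted p = 0.0184 and 0.0238 by edgeR). Timeless was at 7.88 to 16.5 CPM in postSTC, against 20.1 to 23.4 CPM in preSTC, and Tipin at 17.6 to 22.8 CPM in postSTC, against 25.5 to 30.7 CPM in preSTC. The call was lost without postSTC5 or preSTC7 for Timeless (edgeR adjusted p = 0.0502 and 0.052) and without postSTC2 or preSTC7 for Tipin (0.0591 and 0.0745). In the blocked fit of 8 libraries none of the 4 was called, with edgeR adjusted p of 0.118 for Npas2, 0.136 for Rora, 0.122 for Timeless and 0.257 for Tipin. None of the 4 was called without the 3 libraries numbered 7, with edgeR adjusted p of 0.119, 0.0885, 0.0549 and 0.119 in the same order. On log2(FPKM + 0.1) limma called none of the 4, with adjusted p of 0.327, 0.111, 0.142 and 0.210. The same held on log2(FPKM + 1), with limma adjusted p of 0.333, 0.114, 0.124 and 0.213. In the blocked fit of 12 libraries Tipin alone of the 4 was not called (0.0931). Bmal1 differed by 0.42 ± 0.21 (SE, adjusted p = 0.171 by edgeR), although every postSTC library lay above every preSTC library.

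**Figure D5:**
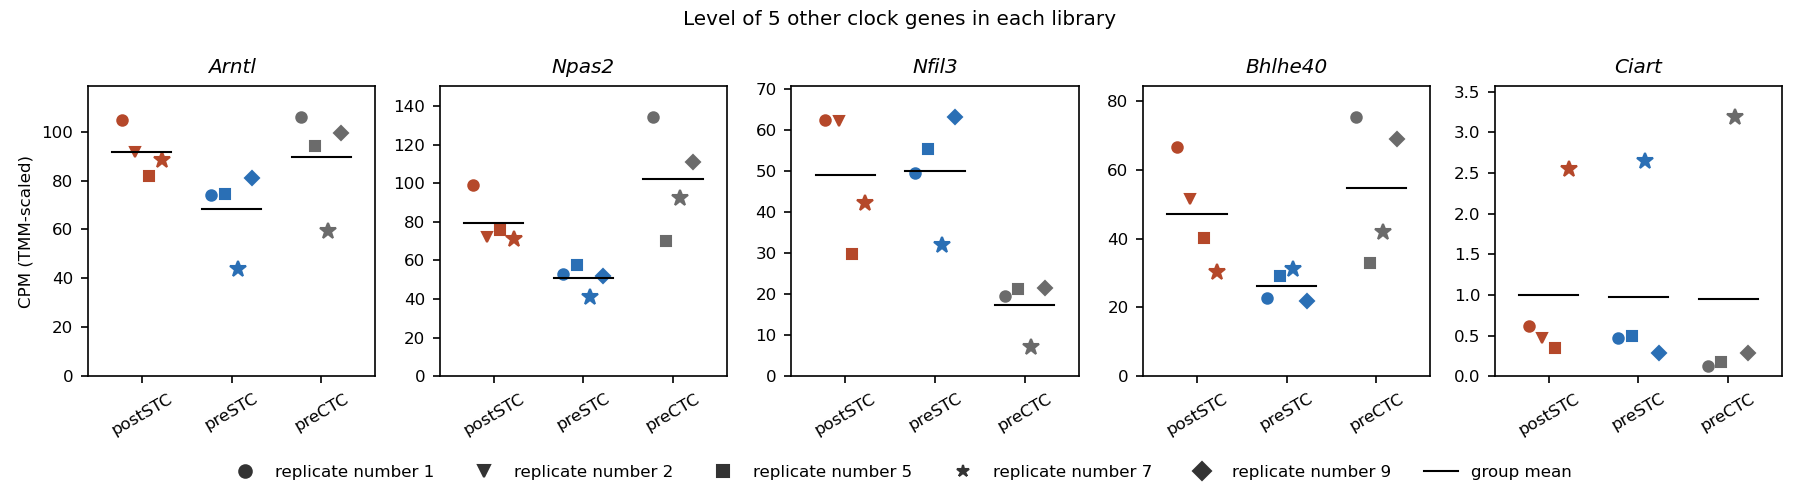
Level of 5 other clock genes in every library, in CPM scaled by TMM on linear axes from 0, with one marker shape per replicate number and a line at each group mean. Npas2 is at 71.0 to 99.1 CPM in postSTC and 40.8 to 57.6 CPM in preSTC, and Arntl and Nfil3 are lowest in preSTC7 and preCTC7 within their groups, where Ciart is highest.

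In preSTC against preCTC, 3 of the 18 rose and 2 fell, against 19.1% higher and 19.6% lower of all tested genes. Nfil3, the D-box repressor, was at 32.1 to 63.3 CPM in preSTC, against 7.12 to 21.5 CPM in preCTC, with a log2 fold change of 1.53 ± 0.35 (SE, adjusted p = 0.00499 by edgeR). Csnk1d, a kinase that marks PER proteins for degradation, rose by 0.48 ± 0.10, and Timeless by 0.72 ± 0.19 (SE, adjusted p = 0.00214 and 0.0122 by edgeR). On the FPKM scales limma called neither, with an adjusted p of 0.261 and 0.253 for Csnk1d and 0.256 and 0.185 for Timeless. Npas2 and Bhlhe40, an E-box repressor also known as DEC1, fell, with log2 fold changes of -1.003 ± 0.19 and -1.06 ± 0.29 (SE, adjusted p = 0.00157 and 0.0128 by edgeR), and for Bhlhe40 limma on log2(FPKM + 1) gave 0.0512. In postSTC against preCTC, 2 rose and 1 fell, against 9.27% higher and 7.37% lower of all tested genes. Nfil3 was higher by 1.51 ± 0.35 and Tipin lower, at -0.49 ± 0.12 (SE, adjusted p = 0.0128 and 0.0155 by edgeR). Both calls were lost on the FPKM scales, with a limma adjusted p of 0.0712 and 0.0713 for Nfil3 and 0.0658 and 0.0612 for Tipin. The Tipin call was also lost with the 8 libraries alone (edgeR adjusted p = 0.0603) and without the libraries numbered 7 (0.0579). Bhlhe41, the DEC2 gene, stood at 6.31, 21.6, 21.1 and 9.36 CPM in postSTC, against 2.51, 2.28, 6.76 and 4.24 CPM in preCTC (log2 fold change 1.89 ± 0.58, SE, adjusted p = 0.0438 by edgeR), and leaving out single libraries gave an adjusted p of up to 0.116, while limma gave 0.134 and 0.118 on the FPKM scales.

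Of 13 genes known as clock outputs, 3 rose and 0 fell in postSTC against preSTC, against 11.1% higher and 6.9% lower of all tested genes, with a median log2 fold change of 0.09. Tsc22d3, the GILZ gene, which glucocorticoids also induce, was at 46.6 to 65.0 CPM in postSTC, against 20.4 to 30.4 CPM in preSTC, with a log2 fold change of 1.10 ± 0.21 (SE, adjusted p = 0.00639 by edgeR, or 0.0679 in the blocked fit of 8 libraries). It was at 42.1 to 85.7 CPM in preCTC. On log2(FPKM + 0.1) and log2(FPKM + 1), limma gave an adjusted p of 0.0979 and 0.111 for Tsc22d3. Tspan4, a tetraspanin gene, and Klf10, a Krüppel-like factor gene, rose by 1.05 ± 0.29 and 0.80 ± 0.26 (SE, adjusted p = 0.0286 and 0.0482 by edgeR), and both calls were lost in both blocked fits, on both FPKM scales and without several single libraries. Of 10 glucocorticoid-responsive genes, which include Tsc22d3, 3 rose and 0 fell against the same shares of all genes, with a summed level of 656 to 841 CPM in postSTC, against 525 to 808 CPM in preSTC. The 12 immediate-early genes had a median log2 fold change of -0.20, with a summed level of 559 to 997 CPM in postSTC, against 686 to 1106 CPM in preSTC.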

How the data were processed

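Whole read counts per gene were deposited by the authors, 1 column per library with no pooling; fastp, HISAT2, HTSeq and the rat assembly mRatBN7.2 are named, without versions or roles, per the submitters' processing notes. FPKM values were deposited as a separate table by the authors, and within each gene they were proportional to the deposited count divided by its column total. The series' design text describes a pig genome and was not used. Use of strand in counting is not given in the sources used here. The gene bodies of Nr1d1 and Thra overlap, as do those of Cry1, Cry2, Per2 and Clock with uncharacterised loci, so reads there are uncertain.

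Groups, replicate numbers and columns were matched by title. In R 4.3.3, edgeR 4.0.16 with TMM scaling and filterByExpr tested 15704 of 18749 genes in 1 quasi-likelihood model of 12 libraries with the group as its only term, two-sided, with Benjamini-Hochberg adjustment over all tested genes and a threshold of 0.05. The script was tested on simulated data. The standard error is the absolute log2 fold change over the square root of F. Alternatives used DESeq2 1.42.0, limma 3.58.1 (voom, and log2(FPKM + 0.1) or log2(FPKM + 1)), other scaling, no filter, 8 libraries only, a replicate block and leaving out libraries. The numbers were taken to pair postSTC with preSTC, since all 3 same-numbered pairs deviated together over all genes (r = 0.236, 0.158 and 0.168). Differently numbered pairs of these groups had r from -0.171 to 0.130. The main model did not use the pairs, and the block was run as an alternative. The libraries postSTC2 and preSTC9 have no same-numbered partner in this comparison. Pairing of preCTC with the others was not assumed in the main model, since the libraries numbered 5 did not deviate together (r = -0.0278 with preSTC and -0.0159 with postSTC). Blocked fits that include preCTC, also the blocked fit of 12 libraries, do assume it. The other same-numbered pairs had r of 0.222, 0.171 and 0.145 with preSTC, and 0.220 and 0.0544 with postSTC. Differently numbered pairs reached 0.161 with preSTC and 0.157 with postSTC, so pairing is not settled there. Counts in replicates differed by more than sampling noise (chi-square per gene at least 32.0), so none was treated as a duplicate. Log2 CPM used a prior count of 2.

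The members and lists were chosen with earlier results of these data known. Named by rule were the 10 genes, Bmal1 and Npas2, each other clock gene called in any comparison, up to 5 called output genes of postSTC against preSTC, and the 5 genes most like Dbp and Cry2. Of 18749 identifiers, 18531 (98.8%) matched RefSeq genes of assembly GRCr8, used for names and promoter sequences only.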

Additional observations from a re-analysis of the deposited data

Results flagged for a closer look

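Of 72 combinations of a clock gene and a group of 4 libraries, 15 had 1 library so far from the other 3 that its gap to the nearest exceeded Dixon's 95% critical value, as a share of the group's range. The nominal rate of about 1 in 20 groups holds for normal values and was not checked for CPM on a linear scale. No rate over all genes is given, and genes of 1 loop are not independent. The count was therefore not compared with chance. The libraries numbered 7 account for 11 of the 15. In preSTC7 they were Nr1d1 (91.2 CPM), Dbp (40.4 CPM), Tef (37.4 CPM) and Ciart (2.65 CPM), each far above the other preSTC libraries. In preCTC7 Nr1d1 (153 CPM), Nr1d2 (69 CPM), Dbp (46.1 CPM) and Ciart (3.19 CPM) lay far above the other preCTC libraries, and Nfil3 (7.12 CPM) far below them. In postSTC7 Ciart (2.55 CPM) and Clock (108 CPM) lay above the other postSTC libraries, Clock by little, since the other 3 were at 97.4 to 98.2 CPM. The remaining 4 were Cry2 in preSTC1 (9.87 CPM, low), Npas2 in postSTC1 (99.1 CPM, high), and Per1 (43.3 CPM) and Tipin (32.7 CPM) in preCTC1, both high.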

How the results depend on the processing

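Of the 10 clock genes, 1 was called in postSTC against preSTC by edgeR, against 4 by DESeq2 and 0 on both log2(FPKM + 0.1) and log2(FPKM + 1). It was 1 to 2 when single libraries were left out (2 without postSTC7, where Per2 was added, and 2 without preSTC1, where Clock was added). Without the 3 libraries numbered 7, a setting chosen after seeing the data, it was 2. All genes called there numbered 2833, against 653 and 521 on the FPKM scales, 1767 without the libraries numbered 7, and 1617 to 3681 without single libraries (1617 without preSTC1, 1861 without preSTC5, 1688 without preSTC7). In preSTC against preCTC 6077 genes were called, against 3753 and 3824 on the FPKM scales. In postSTC against preCTC 2612 were called, against 1569 and 1668 on the FPKM scales and 1479 with the 8 libraries compared alone; of the 10 clock genes edgeR called 0 and DESeq2 called 1.

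With the replicate number as a block, postSTC against preSTC gave 1746 genes over 12 libraries and 68 over 8, and 0 clock genes over 8. The block over 12 libraries also pairs preCTC by number. For comparisons with preCTC, pairing by number was not assumed in the main fit. Same-numbered preSTC and preCTC libraries had r of 0.222, -0.0278, 0.171 and 0.145 over all genes for numbers 1, 5, 7 and 9. There the block gave 6 clock genes over 8 libraries, against 3 without it, in preSTC against preCTC, adding Nr1d1 (-0.79, edgeR adjusted p = 0.00227), Tef (0.0409) and Per1 (0.0475), and 1399 genes over 12 libraries and 153 over 8 in postSTC against preCTC. There it ended the calls of Nfil3 over 8 libraries (edgeR adjusted p = 0.191), of Tipin over 12 and 8 (0.088 and 0.274) and of Bhlhe41 over 12 and 8 (0.121 and 0.284). The block turned the direction of values that were not called: in postSTC against preSTC, Dbp to 0.29 and 0.19, Per1 to -0.16 and Nfil3 to 0.016; in preSTC against preCTC, Cry1 to 0.030 and 0.017; in postSTC against preCTC, Tef to 0.0055.

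Other values that were not called also changed sign, given here as log2 fold changes. Leaving out single libraries gave, in postSTC against preSTC, -0.44 to 0.95 for Dbp, -0.19 to 0.15 for Nfil3, -1.12 to 0.42 for Nr1d1 and -0.035 to 0.40 for Per1. In preSTC against preCTC it gave -0.15 to 0.15 for Cry1, -0.35 to 0.45 for Nr1d2, -1.80 to 0.24 for Nr1d1, -1.39 to 0.67 for Dbp and -0.10 to 0.037 for Tipin. In postSTC against preCTC it gave -0.27 to 0.36 for Tef, -0.12 to 0.12 for Arntl, -0.21 to 0.11 for Timeless, -0.60 to 0.020 for Per1 and -0.70 to 0.51 for Dbp. By limma voom, Dbp was 0.22 in postSTC against preSTC, Cry1 0.011 in preSTC against preCTC and Tef 0.026 in postSTC against preCTC. The FPKM scales, which carry no TMM correction, gave 0.15 and 0.10 for Dbp in postSTC against preSTC, -0.11 and -0.093 for Nr1d2 in preSTC against preCTC, and -0.22 and -0.20 for Arntl and -0.035 and -0.033 for Csnk1d in postSTC against preCTC. Without the libraries numbered 7, Dbp was 0.67 and Per1 -0.080 in postSTC against preSTC, Nr1d2 -0.029 in preSTC against preCTC, and Dbp 0.27, Tef 0.28, Arntl -0.082 and Timeless 0.15 in postSTC against preCTC. The cause was not tested. Cry2 and Per3 passed in preSTC against preCTC under all 22 alternatives. With 4 libraries a group and no sampling times, a difference in clock phase and one in level cannot be told apart.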

Other observations

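Of 12 immediate-early genes, 2 fell and 0 rose in preSTC against preCTC (edgeR adjusted p under 0.05), against 19.6% lower and 19.1% higher of all tested genes. In postSTC against preCTC 4 fell and 0 rose, against 7.37% lower and 9.27% higher of all tested genes. Their summed level was highest in a preCTC library, at 1695 CPM, with the lowest preCTC library at 571 CPM. Of 10 glucocorticoid-responsive genes, 2 rose and 2 fell in preSTC against preCTC, and 1 rose and 1 fell in postSTC against preCTC, against the same shares of all genes. Dusp1 is in both lists. The time since handling or surgery is not given.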
